A study of Mus musculus with 16 samples.

Results

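Chemokine receptors decide where a monocyte can go, and 6 of their genes, Ccr1, Ccr2, Ccr7, Ccrl2, Cx3cr1 and Cxcr4, were followed across the 16 RNA sequencing libraries of this study. The 6 were chosen by name among the 13085 genes of the deposited table, which lists all 6, and each passed the filter on low values in every fit. The cells were mouse monocytes of the strain C57BL/6, from NFAM1+/+ mice or from NFAM1-/- mice, whose Nfam1 gene lacks exons 2 and 3 in the germ line. NFAM1 is a transmembrane receptor of immune cells with a signalling motif in its tail. The monocytes were cultured without stimulus, or pretreated with IFN-γ and then given CD40L, the ligand of the receptor CD40, and were taken at 6 h or at 24 h. The labels give 100 µg/mL of IFN-γ and 1 µg/mL of CD40L, and the study's methods give the same dose of IFN-γ for the culture of monocytes but 50 ng/mL for the RNA sequencing. No comparison here depends on the dose. Each combination of genotype, stimulus and time has 2 libraries, so each combination of stimulus and time has 4. The labels call the cells monocytes of peripheral blood, while the methods describe monocytes enriched from bone marrow. One protocol field also describes editing of human monocytes, but the organism, the strain and the gene symbols of all 16 libraries are those of the mouse. The study counts 4 NFAM1+/+ and 6 NFAM1-/- mice for its RNA sequencing, fewer than the 8 libraries of each genotype, so by that count some libraries share a mouse. The age of the mice and their division among the libraries are not given in the sources used here. The tests treat the libraries as independent, so a p-value measures the spread between libraries, which may be technical.

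At 24 h the labels disagree with each other. In 4 of the 8 libraries at 24 h, numbers 44, 46, 56 and 58, the title names 1 genotype and the genotype tag the other, and title and tag agree in the remaining 12 libraries of the series. Comparisons of stimulus and time therefore pooled the genotypes, and the genotype at 24 h is given by the title, by the tag and in the 4 libraries on which both agree. Reads on Nfam1 include those from the exons that remain in NFAM1-/- mice, so its level is a partial check of the labels. Without stimulus at 6 h it stood at 432 and 408 CPM in the NFAM1+/+ libraries and 299 and 321 CPM in the NFAM1-/- libraries, and with IFN-γ plus CD40L at 6 h at 133 and 129 CPM against 135 and 127 CPM. At 24 h it stood at 463 and 495 CPM in the unstimulated libraries titled NFAM1+/+ and 441 and 391 CPM in those titled NFAM1-/-, and at 271 and 252 CPM against 201 and 223 CPM with the stimulus. The libraries of the 2 genotypes overlap for Nfam1 in the stimulated cells at 6 h and are apart by title in the other 3 conditions.

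The deposited values are log2 CPM, where CPM scales a gene's reads to the size assigned to its library, and levels are given unlogged. Each library holds 48295939 to 88514341 reads on the listed genes, and the lowest count of any of the 6 receptors in any library was 382 reads, for Ccr7. Markers of monocytes were abundant in every library: the 8 genes Ly6c2, Csf1r, Itgam, Lyz2, Fcgr1, Cd68, Spi1 and Adgre1 summed to 20128 to 22359 CPM without and 8638 to 10453 CPM with the stimulus at 6 h, and to 24683 to 29082 CPM and 9068 to 12199 CPM at 24 h, led by Lyz2. Lyz2, Csf1r, Itgam, Cd68 and Adgre1 were lower and Ly6c2, Fcgr1 and Spi1 higher in the stimulated libraries at each time, without overlap. The lower sums rest on Lyz2, since the other 7 genes together were higher with the stimulus at 6 h and overlapped at 24 h. Their part in the levels of receptor transcripts was not tested. The 2 listed B cell markers summed to at most 17.4 CPM, led by Cd79b except in library 12, and the 3 listed T cell markers to less. No gene of the NK cell list is in the table. Xist was read at 201 to 394 CPM, and no gene of the list on the Y chromosome is in the table.

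Chemokine receptors are membrane-spanning proteins that couple to inhibitory G proteins. When a chemokine binds, the freed G protein subunits drive actin and adhesion so that the cell moves toward the source, and receptor kinases and arrestins then silence the receptor. On monocytes CCR2 draws cells out of the bone marrow and into inflamed tissue, CX3CR1 supports survival and patrolling, CXCR4 holds cells in the marrow through CXCL12, and CCR1 answers several inflammatory chemokines. CCRL2 is an atypical receptor that holds chemerin at the cell surface without signalling, and CCR7 guides cells, above all mature dendritic cells, to lymph nodes.

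The genes of 4 of the 6 receptors lie on chromosome 9 of GRCm38 in GENCODE vM21, an older build than the GRCm39 named by the submitters: Ccrl2 at chr9:111054486-111057519, Cx3cr1 at chr9:119901616-120069879, Ccr1 at chr9:123962124-123968692 and Ccr2 at chr9:124101950-124113557. Cxcr4 lies at chr1:128588199-128592293 and Ccr7 at chr11:99144196-99155077. Of the 6, only Cx3cr1 overlaps other annotated genes on either strand, 9 of them. The libraries carry no strand, so reads from overlapping genes on either strand cannot be told apart where exons overlap. RefSeq gives starts for 5 of the 6 genes in GRCm38.p6. The bases from -200 to -6 before the start are shown for the 3 genes whose window is outside every annotated gene, because Ccrl2 was the receptor that rose most and Cxcr4 and Ccr1 fell with the stimulus. The windows are chr9:111057524-111057718 for Ccrl2, chr1:128592305-128592499 for Cxcr4 and chr9:123968698-123968892 for Ccr1, all on the minus strand, written 5′ to 3′ with matches to the motifs searched in capitals.
Ccrl2: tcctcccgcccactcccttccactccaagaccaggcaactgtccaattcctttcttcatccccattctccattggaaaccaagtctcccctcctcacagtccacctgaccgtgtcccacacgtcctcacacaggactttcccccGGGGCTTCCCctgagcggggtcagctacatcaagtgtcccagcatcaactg
Cxcr4: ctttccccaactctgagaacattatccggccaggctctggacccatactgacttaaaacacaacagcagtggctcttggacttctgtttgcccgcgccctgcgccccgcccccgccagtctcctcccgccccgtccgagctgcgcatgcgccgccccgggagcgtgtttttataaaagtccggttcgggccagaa
Ccr1: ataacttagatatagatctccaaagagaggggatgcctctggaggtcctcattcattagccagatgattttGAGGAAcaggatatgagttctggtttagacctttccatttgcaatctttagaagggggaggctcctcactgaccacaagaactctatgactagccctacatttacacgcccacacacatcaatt
RefSeq gives 3 starts for Ccrl2, and the window shown is that of the first of them, while the windows of the other 2 lie within the gene and hold no match. The capitals in Ccrl2 are the match to the NF-kB consensus of 10 bases, from -56 to -47, and those in Ccr1 are the PU.1 box GAGGAA, from -129 to -124. On both strands the NF-kB consensus was found in 3.08% of the 32851 promoter windows of the same length, and GAGGAA in 18.5%. Neither the interferon-gamma activated site TTCNNNGAA, found in 5.37% of all windows, nor the interferon-stimulated response element GAAA, 2 bases of any kind and GAAA, found in 2.23%, was in the windows of the 5 genes. A match is a run of letters, not evidence that a factor binds there.

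The receptor transcripts split by direction when monocytes met IFN-γ plus CD40L. Ccr2, Cx3cr1 and Cxcr4 fell at both times and Ccr1 fell at 24 h, while Ccrl2 and Ccr7 rose at both. In bulk RNA, fewer cells that carry a transcript and less of it in each cell cannot be told apart.

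Cx3cr1, the fractalkine receptor, fell at both times. At 6 h it was at 982, 939, 895 and 885 CPM in the unstimulated libraries and at 61.3, 48.9, 53.8 and 41.2 CPM in the stimulated ones. At 24 h it was at 677, 789, 749.7 and 610.4 CPM without stimulus and at 19.0, 19.5, 23.3 and 28.9 CPM with it. The 4 stimulated libraries lay far below the 4 unstimulated ones at each time, with no overlap. The log2 fold change was -4.19 (SE 0.13, limma adjusted p = 5.85e-15) at 6 h, a fall of 18.2 times, and -4.98 (SE 0.13, limma adjusted p = 1.16e-15) at 24 h, a fall of 31.5 times.

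Ccr2, the CCL2 receptor, also fell at both times. At 6 h it was at 1443, 1392, 1836 and 1746 CPM in unstimulated and at 616, 634, 739 and 650.4 CPM in stimulated libraries, a log2 fold change of -1.28 (SE 0.21, limma adjusted p = 2.46e-05). At 24 h it was at 1969.7, 1507, 1679 and 1971 CPM without stimulus and at 259, 187, 198 and 469 CPM with it, a log2 fold change of -2.77 (SE 0.21, limma adjusted p = 1.82e-09). The groups did not overlap at either time. Among the stimulated libraries at 24 h, library 58 held the most Ccr2 and libraries 56 and 57 the least.

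Cxcr4, the CXCL12 receptor, had its larger fall at 6 h. It was at 229, 230.0, 254 and 272 CPM without stimulus and at 41.1, 32.7, 29.7 and 26.0 CPM with it at 6 h, and at 184, 189, 171 and 189.9 CPM against 52.8, 67.5, 59.4 and 53.4 CPM at 24 h. All 4 stimulated libraries lay below all 4 unstimulated ones at each time. The log2 fold change was -2.94 (SE 0.11, limma adjusted p = 1.14e-13) at 6 h and -1.66 (SE 0.11, limma adjusted p = 4.35e-10) at 24 h, or 7.70 times and 3.16 times lower.

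Ccr1, a receptor of CCL3 and CCL5, was called lower at 24 h alone. At 6 h it was at 25.2, 22.8, 43.0 and 48.5 CPM in the unstimulated libraries 1 to 4 and at 31.5, 14.1, 16.6 and 19.9 CPM in the stimulated libraries 26, 10, 11 and 12. The groups overlapped, since stimulated library 26 stood above unstimulated libraries 1 and 2, and the log2 fold change of -0.76 (SE 0.28, limma adjusted p = 0.0192) missed the minimum of 2 times. At 24 h Ccr1 was at 51.9, 31.9, 32.3 and 63.6 CPM without stimulus and at 15.4, 18.8, 15.6 and 18.7 CPM with it. These groups were apart, with a log2 fold change of -1.33 (SE 0.28, limma adjusted p = 0.000337). The markers of neutrophils, which also carry CCR1, were apart at 24 h as well. All 10 genes of that list, led by Csf3r, are in the table, and they summed to 1228, 956, 878 and 1014 CPM without stimulus and 377, 358, 362 and 324 CPM with it, Elane having 0 reads in libraries 57 and 58. At 6 h the sums overlapped, at 333, 369.9, 324 and 405 CPM and 501, 394, 308 and 474 CPM. The part of neutrophils in the level of Ccr1 was not tested.

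Ccrl2, the atypical receptor, rose at both times. It was at 53.9, 51.2, 43.9 and 32.9 CPM in unstimulated and at 662, 590.3, 593 and 569.8 CPM in stimulated libraries at 6 h, and at 54.7, 93.9, 102 and 39.2 CPM against 733, 859, 858 and 638 CPM at 24 h. The stimulated libraries were above the unstimulated ones without overlap at both times and varied little at 6 h, while the unstimulated libraries at 24 h spanned a wide range. The log2 fold change was 3.75 (SE 0.23, limma adjusted p = 1.07e-10) at 6 h and 3.51 (SE 0.23, limma adjusted p = 3.57e-10) at 24 h, or 13.5 times and 11.4 times higher.

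Ccr7, the receptor for CCL19 and CCL21, rose at both times too. At 6 h it was at 5.56, 7.93, 3.33 and 3.57 CPM without stimulus and at 66.7, 33.2, 16.2 and 24.9 CPM with it. At 24 h it was at 35.6, 54.5, 22.2 and 23.8 CPM without stimulus and at 167, 211, 176 and 83.7 CPM with it. The groups were apart at each time, and at 6 h its libraries within a group varied more on the log2 scale than those of the other 5 receptors. The log2 fold change was 2.68 (SE 0.40, limma adjusted p = 1.02e-05) at 6 h and 2.25 (SE 0.40, limma adjusted p = 8.19e-05) at 24 h, or 6.42 times and 4.74 times higher.

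Because CCR7 is known best from mature dendritic cells, the dendritic cell markers stand beside it. All 7 genes of that list, Flt3, Zbtb46, Xcr1, Clec9a, Siglech, Cd209a and Fscn1, had reads in every library. At 6 h they summed to 52.0, 65.4, 60.0 and 67.9 CPM without stimulus and 84.8, 66.3, 51.2 and 52.6 CPM with it. At 24 h they summed to 282, 178, 171 and 318 CPM without stimulus and 229.8, 255, 237 and 159 CPM with it. The sums with and without stimulus overlapped at each time, and all 8 at 24 h exceeded all 8 at 6 h, while the most abundant gene of the list was Flt3 in the unstimulated libraries and, in 7 of the 8 stimulated ones, Fscn1. Fscn1, which encodes the actin bundler fascin, was at 0.948 to 2.86 CPM without and 14.8 to 33.4 CPM with the stimulus at 6 h, and at 14.1 to 37.0 CPM and 124 to 218 CPM at 24 h. Flt3, the gene of a cytokine receptor of dendritic cells and their precursors, was at 67.3 to 145 CPM without and 3.42 to 4.10 CPM with the stimulus at 24 h. The part of dendritic cells in the level of Ccr7 was not tested.

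**Figure D1:**
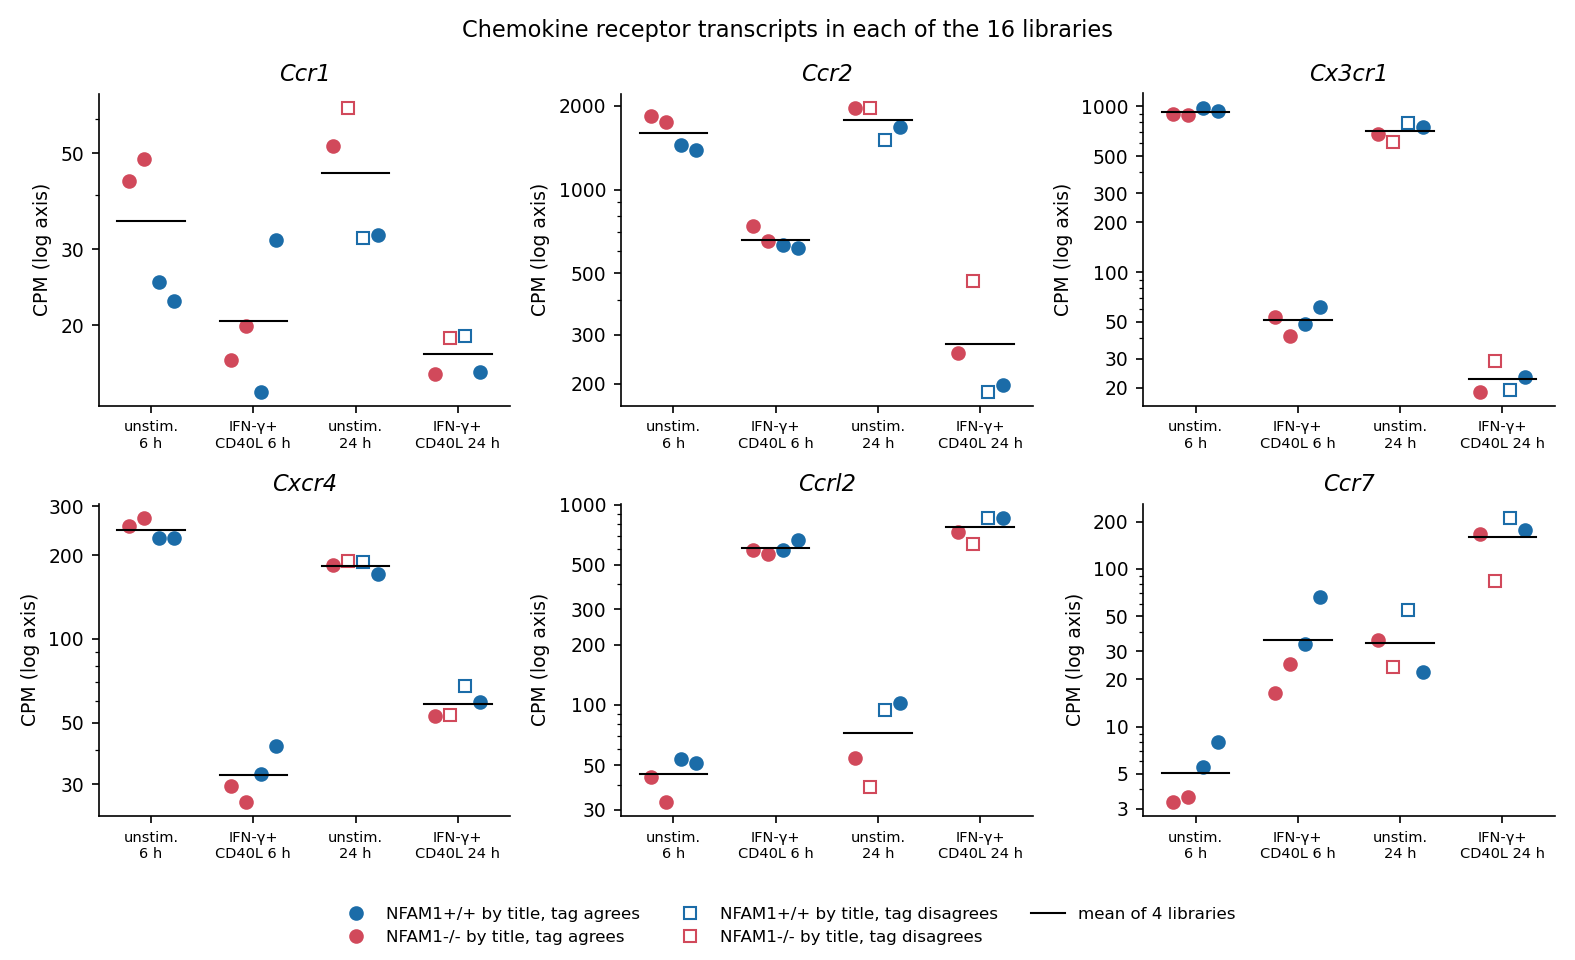
Level of each receptor transcript in each library, in CPM on a log axis, by stimulus and time. Each point is 1 library, blue for NFAM1+/+ and red for NFAM1-/- by title, open squares are the libraries whose tag names the other genotype, and the line is the mean of 4 libraries. Cx3cr1 and Cxcr4 sit lower and Ccrl2 and Ccr7 higher in every stimulated library of the same time.

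With calls set at an adjusted p under 0.05 and a change of 2 times or more, 2 of the 6 receptors were called higher and 3 lower at 6 h. Among all 12306 genes tested, 18.9% were called higher and 20.3% lower. At 24 h 2 receptors were called higher and 4 lower, against 14.6% and 18.2% of all genes. The stimulus changed a large share of the transcriptome, so a call alone sets none of the 6 apart. The same calls came from the 12 libraries whose labels agree, with 5 receptors called at 6 h and 6 at 24 h.

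The scaling of the libraries bears on the size of these changes. The reads on the listed genes were 0.756 to 0.775 times the deposited library size in the unstimulated libraries at 6 h and 1.24 to 1.32 times in the stimulated ones, and 0.776 to 0.788 and 0.970 to 0.997 times at 24 h. When the total reads of a library replaced its deposited size, the median log2 fold change of all genes went from -0.13 to -0.86 at 6 h and from 0.017 to -0.32 at 24 h. The direction of all 6 receptors held at both times under this scaling, quantile normalization and centring on the median. On library totals Ccr1 was also called at 6 h, with a log2 fold change of -1.49 (limma adjusted p = 6.71e-05), Ccr2 went to -2.01 and Ccr7 to 1.95. The share of called genes that were higher at 6 h, 48.2% as deposited, was 21.7% under this scaling, and at 24 h it went from 44.5% to 30.7%.

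**Figure D2:**
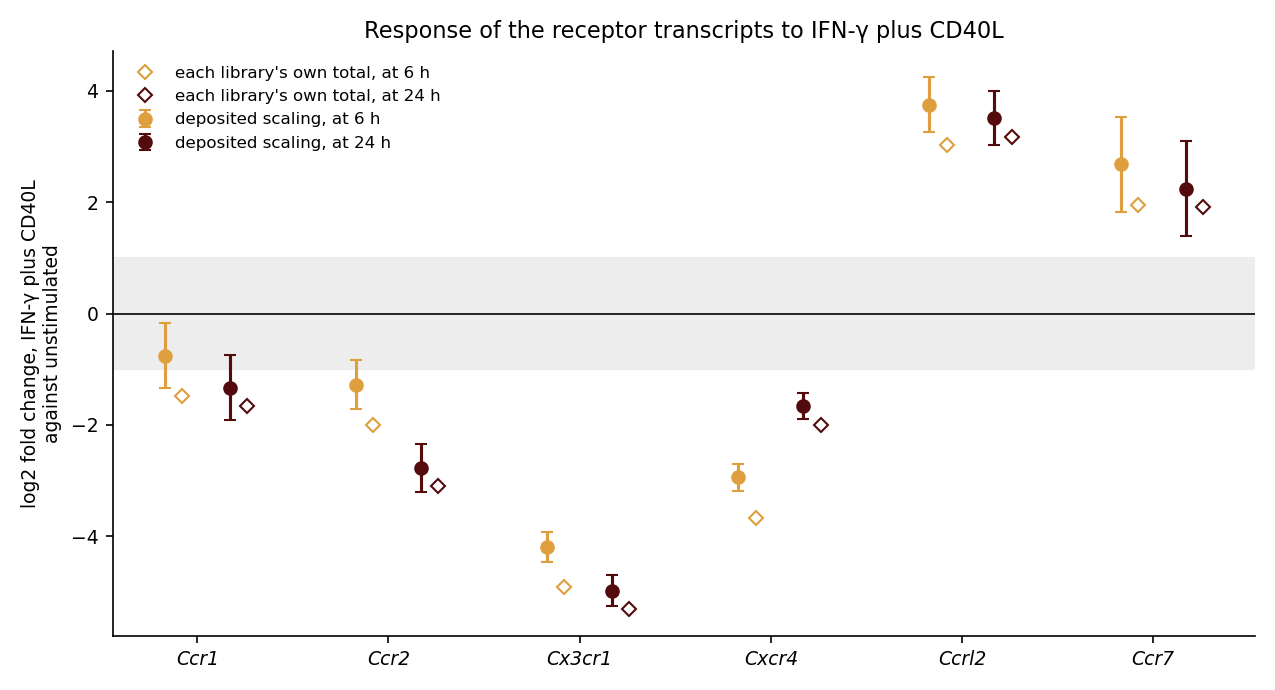
Log2 fold change of each receptor transcript with IFN-γ plus CD40L against unstimulated cells at 6 h and at 24 h. Filled points with bars are the estimates and 95% intervals on the deposited scaling over 4 against 4 libraries, open diamonds the estimates on library totals, and the grey band spans changes of less than 2 times. Ccr1, Ccr2, Cx3cr1 and Cxcr4 lie below 0 and Ccrl2 and Ccr7 above it under both scalings.

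Levels of different genes were compared per kilobase of exon, with lengths from GENCODE vM21. Without stimulus at 6 h the mean levels were 237 ± 32.5 CPM per kilobase (SD, n = 4) for Ccr2, 205 ± 9.84 for Cx3cr1 and 136 ± 11.4 for Cxcr4, and then 17.5 ± 3.62 for Ccrl2, 12.3 ± 4.52 for Ccr1 and 2.58 ± 1.08 for Ccr7. The libraries overlapped between Ccr2 and Cx3cr1 and between Ccrl2 and Ccr1, and the other neighbours in this order were apart. The receptors for CCL2, fractalkine and CXCL12 thus led in unstimulated cells. With the stimulus at 6 h Ccrl2 led at 232 ± 15.5 CPM per kilobase, apart from Ccr2 at 97.6 ± 8.06. The remaining 4 receptors followed between 17.9 for Cxcr4 and 7.24 for Ccr1, each overlapping its neighbour in the order.

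At 24 h the order per kilobase was the same for the first 4 receptors without stimulus, with Ccr2 at 264 ± 33.9 CPM per kilobase, Cx3cr1 at 157 ± 17.6, Cxcr4 at 101 ± 4.73 and Ccrl2 at 27.9 ± 11.7. Ccr7, last at 6 h, stood at 17.2 ± 7.54 and overlapped both Ccrl2 and Ccr1. With the stimulus at 24 h Ccrl2 was again first, at 297 ± 41.2 CPM per kilobase, followed by Ccr7 at 80.6 ± 27.3, Ccr2 at 41.1 ± 19.4 and Cxcr4 at 32.2 ± 3.78, where Ccr7 overlapped Ccr2 and Ccr2 overlapped Cxcr4. Cx3cr1 had moved from the second place to the last, at 5.03 ± 1.01, where it overlapped Ccr1 at 6.05 ± 0.669. These orders depend on the annotated lengths, which may not be those of the transcripts present.

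**Figure D3:**
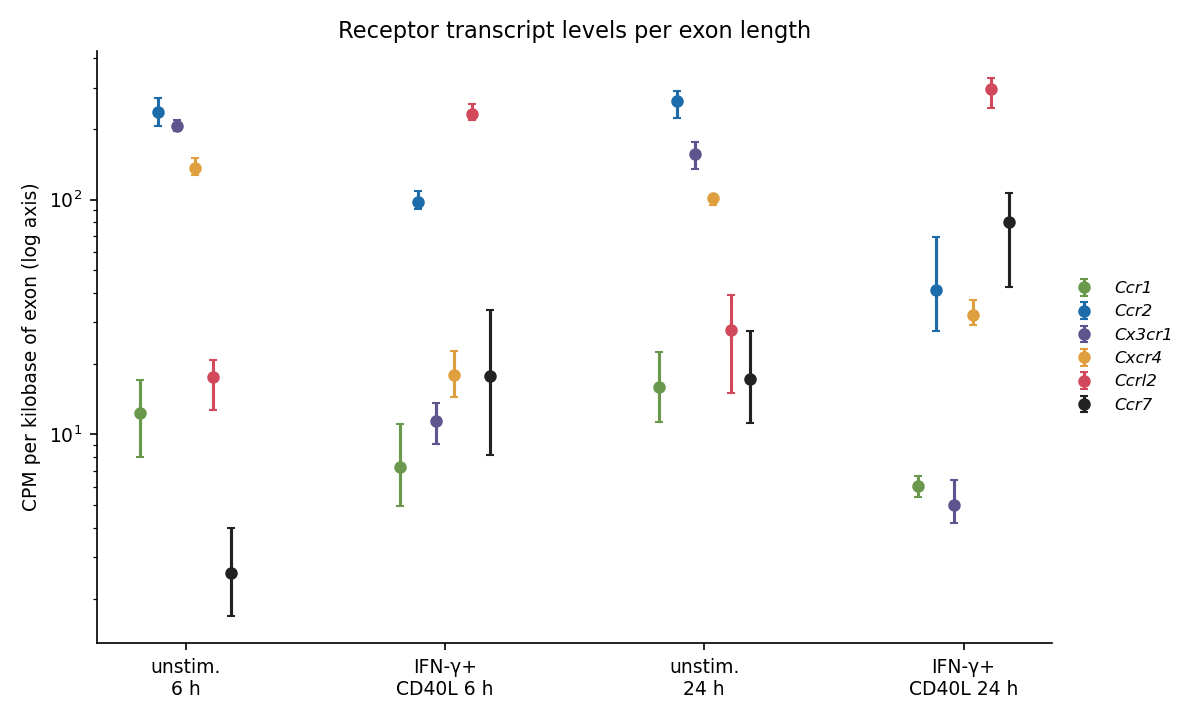
Level of each receptor transcript in CPM per kilobase of exon, on a log axis, by stimulus and time. Points are means of 4 libraries and bars run from the lowest to the highest library. Ccr2, Cx3cr1 and Cxcr4 are the top 3 without stimulus, and Ccrl2 is first with it at both times.

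Between the times, Ccr7 differed most of the 6. Between unstimulated cells at 6 h and at 24 h it rose by 2.73 on the log2 scale (SE 0.40, limma adjusted p = 1.67e-05), so that unstimulated libraries at 24 h overlapped stimulated ones at 6 h. It was the 1 receptor of 6 called higher, against 12.8% of all genes, and 0 were called lower, against 7.58%. At an unadjusted p under 0.05 limma's test gave 2 receptors higher and 2 lower, Ccr7 and Ccrl2, and Cx3cr1 and Cxcr4, among 4307 and 3827 of the 12306 genes. Cxcr4 had a log2 difference of -0.42 (SE 0.11, limma adjusted p = 0.0033) and Cx3cr1 of -0.39 (SE 0.13, limma adjusted p = 0.0129), both under 2 times. Ccrl2 differed by 0.59 (SE 0.23, limma adjusted p = 0.035), Ccr1 by 0.38 (SE 0.28, limma adjusted p = 0.248) and Ccr2 by 0.15 (SE 0.21, limma adjusted p = 0.538). The time in culture and any difference in how the sets were prepared cannot be told apart.

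In stimulated cells 1 receptor was called higher at 24 h than at 6 h, against 16.3% of all genes, and 2 were called lower, against 16.8%. Ccr7 rose again, with a log2 fold change of 2.30 (SE 0.40, limma adjusted p = 6.15e-05). Ccr2 fell, with a log2 fold change of -1.35 (SE 0.21, limma adjusted p = 1.47e-05), and so did Cx3cr1, with -1.18 (SE 0.13, limma adjusted p = 2.2e-07). On library totals, both of these fell short of 2 times, at -0.97 and -0.81, and Ccr2 also did so under quantile normalization, at -0.82. Cxcr4 differed by 0.86 (SE 0.11, limma adjusted p = 1.98e-06), and was called higher on library totals, at 1.23. The median of all genes in this comparison moved from 0.044 to 0.42 under that scaling, and the share of calls that were higher from 49.3% to 69.7%. Centred on the median that share was 38.8%. Ccrl2 and Ccr1 differed by 0.35 (SE 0.23, limma adjusted p = 0.184) and -0.20 (SE 0.28, limma adjusted p = 0.529).

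The response itself differed between the times for 2 of the 6 receptors, against 31.6% of all genes, so such a difference was common. For Ccr2 the log2 effect of the stimulus was more negative at 24 h than at 6 h, a difference of -1.499 (SE 0.29, limma adjusted p = 0.00025). Under quantile normalization this difference was -0.80, short of 2 times. For Cxcr4 the effect was smaller at 24 h, a difference of 1.28 (SE 0.16, limma adjusted p = 1.91e-06). The fall of Ccr2 was thus larger in the libraries at 24 h than in those at 6 h, and that of Cxcr4 smaller. Cx3cr1 had a difference of -0.79 (SE 0.18, limma adjusted p = 0.00103), which passed the adjusted threshold without reaching 2 times. For Ccr1, Ccrl2 and Ccr7 the differences were -0.57 (SE 0.39, limma adjusted p = 0.206), -0.24 (SE 0.33, limma adjusted p = 0.528) and -0.44 (SE 0.57, limma adjusted p = 0.513). The share of calls that were higher in this comparison went from 42.6% to 68.1% on library totals, and the median of all genes from 0.054 to 0.45.

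The study asked what loss of NFAM1 does to monocytes, and at 6 h all labels of genotype agree. None of the 6 receptors was called between the genotypes in unstimulated cells, where 0.0661% of the 12111 genes tested were, nor in stimulated cells, where 0.033% were. In limma's test at an unadjusted p under 0.05, 4 of the 6 passed without stimulus and 2 with it, among 1058 and 1522 genes. Without stimulus the 2 NFAM1-/- libraries lay apart from the 2 NFAM1+/+ libraries for all 6 receptors, as they did for 42.3% of all genes. Ccr1, Ccr2 and Cxcr4 were the higher and Ccr7, Ccrl2 and Cx3cr1 the lower in NFAM1-/- cells. With the stimulus the libraries were apart for 3 of the 6, Ccr2 higher and Ccr7 and Cxcr4 lower in NFAM1-/- cells, against 43% of all genes.

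The receptors with the widest differences at 6 h were Ccr1 and Ccr7. Unstimulated Ccr1 was at 25.2 and 22.8 CPM in the NFAM1+/+ libraries and 43.0 and 48.5 CPM in the NFAM1-/- libraries, a log2 fold change of 0.93 (SE 0.30, limma adjusted p = 0.377). Ccr7 was at 5.56 and 7.93 CPM in the NFAM1+/+ libraries and 3.33 and 3.57 CPM in the NFAM1-/- libraries without stimulus, a log2 fold change of -0.95 (SE 0.32, limma adjusted p = 0.42). With the stimulus Ccr7 was at 66.7 and 33.2 CPM in the NFAM1+/+ libraries and 16.2 and 24.9 CPM in the NFAM1-/- libraries, a log2 fold change of -1.23 (SE 0.32, limma adjusted p = 0.297). Each of these values misses the adjusted threshold. The NFAM1+/+ library 26 had the most Ccr7 of the stimulated libraries at 6 h, and without its partner, library 10, the difference was called, at -1.73 (limma adjusted p = 0.0101), a fit that assumes the lone library to vary like the other groups. Without library 26 it was -0.73 (limma adjusted p = 0.718). The summed dendritic cell markers, which include Fscn1, were 84.8 and 66.3 CPM in the stimulated NFAM1+/+ libraries 26 and 10 at 6 h. In the NFAM1-/- libraries 11 and 12 they were 51.2 and 52.6 CPM, so the genotypes were apart in the direction of Ccr7. Without stimulus these sums overlapped, at 52.0 and 65.4 CPM in NFAM1+/+ and 60.0 and 67.9 CPM in NFAM1-/- libraries. The part of dendritic cells in the difference of Ccr7 was not tested.

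Unstimulated Ccrl2 was at 53.9 and 51.2 CPM in the NFAM1+/+ libraries and 43.9 and 32.9 CPM in the NFAM1-/- libraries at 6 h, a log2 fold change of -0.47 (SE 0.12, limma adjusted p = 0.262), and stimulated Cxcr4 at 41.1 and 32.7 CPM in the NFAM1+/+ libraries and 29.7 and 26.0 CPM in the NFAM1-/- libraries, a log2 fold change of -0.40 (SE 0.11, limma adjusted p = 0.323). Within NFAM1+/+ libraries 2 receptors were called higher with the stimulus at 6 h, against 19.6% of all genes, and 3 lower, against 20.1%. Within NFAM1-/- libraries 2 were called higher, against 18.8%, and 4 lower, against 19.4%, the added one being Ccr1. The test of the difference between these responses called 0 of the 6, as it called 0% of all genes, with 2 of the 6 and 846 genes at an unadjusted p under 0.05 in limma. For Ccr1 the response was -0.19 (SE 0.30, limma adjusted p = 0.588) in NFAM1+/+ and -1.33 (SE 0.30, limma adjusted p = 0.00305) in NFAM1-/- cells, a difference of -1.14 (SE 0.42, limma adjusted p = 0.71). In the NFAM1+/+ cells Ccr1 stood at 31.5 CPM in library 26 and 14.1 CPM in library 10, so its replicates there were unlike, and the response in NFAM1+/+ cells was 0.39 without library 10 and -0.77 without library 26. Without library 10 the difference between the genotypes was called, at -1.72 (limma adjusted p = 0.0102), and without library 26 it was -0.56 (limma adjusted p = 0.715).

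At 24 h the calls depended on which label gives the genotype. By title 1 of the 6 receptors, Ccrl2, was called between the genotypes in unstimulated cells, where 0.222% of the 12164 genes tested were called, and 0 of the 6 in stimulated cells, where 0.115% were. In limma's test at an unadjusted p under 0.05, 2 of the 6 passed without stimulus and 3 with it, among 1455 and 2163 genes. By tag 0 of the 6 were called in either, against 0.00822% and 0% of all genes, with 1 of the 6 in each at an unadjusted p under 0.05 in limma, among 233 and 342 genes. The responses to the stimulus differed between the genotypes for 0 of the 6 by title and by tag, against 0% and 0% of all genes, with 3 and 1 of the 6 among 1704 and 192 genes at an unadjusted p under 0.05 in limma.

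Unstimulated Ccrl2 at 24 h was at 93.9 and 102 CPM in libraries 44 and 45, titled NFAM1+/+, and at 54.7 and 39.2 CPM in libraries 43 and 46, titled NFAM1-/-. The groups by title were apart, with a log2 fold change of -1.08 (SE 0.14, limma adjusted p = 0.0134), while by tag they overlapped and the sign turned, to 0.18 (SE 0.42, limma adjusted p = 0.999988). In the pair on which both labels agree, NFAM1-/- library 43 against NFAM1+/+ library 45, the log2 difference was -0.90, with no test. The call by title was lost without library 44, at -1.14 (limma adjusted p = 0.0662), without library 46, where it fell short of 2 times at -0.84 (limma adjusted p = 0.0414), and with a prior variance without a trend, at an adjusted p of 0.195 in limma.

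Unstimulated Ccr1 at 24 h was at 31.9 and 32.3 CPM in the libraries titled NFAM1+/+ and 51.9 and 63.6 CPM in those titled NFAM1-/-, a log2 fold change of 0.84 (SE 0.14, limma adjusted p = 0.0295) by title and -0.16 (SE 0.33, limma adjusted p = 0.999988) by tag. In the agreeing pair it was 0.69. For both genes the libraries sharing a title resembled each other more than those sharing a tag. The summed dendritic cell markers did the same, at 178 and 171 CPM in the unstimulated libraries titled NFAM1+/+ and 282 and 318 CPM in those titled NFAM1-/- at 24 h, led by Flt3, and the part of such cells in these differences was not tested. With the stimulus at 24 h the order by title was the reverse, at 255 and 237 CPM in the libraries titled NFAM1+/+ and 229.8 and 159 CPM in those titled NFAM1-/-, led by Fscn1. The summed neutrophil markers, 10 of 10 listed and led by Csf3r, were 956 and 878 CPM against 1228 and 1014 CPM in the unstimulated libraries by title.

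Stimulated Ccr2 at 24 h was at 187 and 198 CPM in the libraries titled NFAM1+/+ and 259 and 469 CPM in those titled NFAM1-/-, a log2 fold change of 0.86 (SE 0.21, limma adjusted p = 0.0783) by title and -0.47 (SE 0.36, limma adjusted p = 0.999198) by tag. In the agreeing pair, library 55 against library 57, it was 0.39. Library 58 held the most Ccr2, and without library 55 it was called, at 1.29 (limma adjusted p = 0.000809), where library 58 alone stood for its group, while without library 58 it was 0.43 (limma adjusted p = 0.19). Summed monocyte markers with the stimulus were 9068 and 9893 CPM in libraries titled NFAM1+/+ and 12199 and 12000 CPM in those titled NFAM1-/-. The classical sums, which hold Ccr2, were 2449.8 and 2796 CPM against 3229 and 3769 CPM, and stayed apart with Ccr2 taken out. The part of these cells in the difference of Ccr2 was not tested. By title the libraries were apart for 4 of the 6 without stimulus, against 45.5% of all genes, and for 4 with it, against 48.9%. By tag they were apart for 1 without stimulus, Ccr7, against 25.4%, and for 1 with it, Cx3cr1, against 29.3%. Ccr7 without stimulus had a log2 difference of -0.26 (SE 0.41, limma adjusted p = 0.861) by title and 0.94 (SE 0.33, limma adjusted p = 0.999988) by tag, and in the agreeing pair it was 0.68, with the sign of the tag. By title it was 0.39 without library 44 and -0.90 without library 45.

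**Figure D4:**
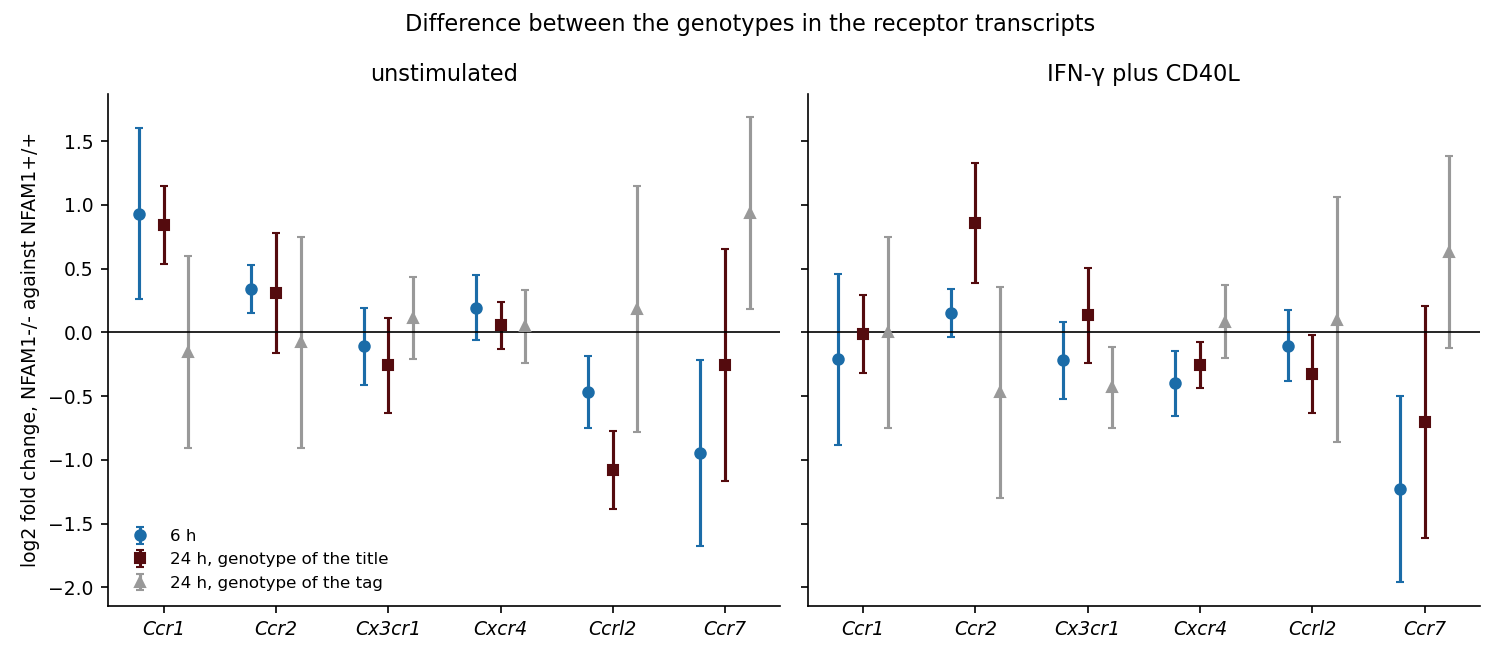
Log2 fold change of each receptor transcript in NFAM1-/- against NFAM1+/+ monocytes, without stimulus and with IFN-γ plus CD40L. Points are estimates over 2 against 2 libraries and bars their 95% intervals, for 6 h and for 24 h with the genotype of the title or of the tag. Ccrl2 without stimulus at 24 h is at -1.08 by title and 0.18 by tag.

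The genes whose pattern was most like each receptor were ranked by Pearson's r over the 16 libraries among 11076 named genes. The libraries fall into 4 conditions, so the points share the steps between conditions and r is a description with no p. The nearest to Ccr2 were St3gal4 (r = 0.989), Neurl3 (r = 0.985) and Ap1s2 (r = 0.981), and to Cx3cr1 St8sia4 (r = 0.993), Add3 (r = 0.992) and Mbp (r = 0.992). The nearest to Cxcr4 were Cd300a (r = 0.985), Pot1b (r = 0.984) and Specc1 (r = 0.984), and to Ccr1, less closely, Tmx4 (r = 0.899), Rara (r = 0.891) and Ndnf (r = 0.885). Ccrl2 was followed most closely by Ralgds (r = 0.995), Cfb (r = 0.993) and Cd274 (r = 0.991), and Ccr7 by Fscn1 (r = 0.987), Synpo2 (r = 0.970) and Snx8 (r = 0.966). Cd274 encodes the checkpoint ligand PD-L1 and Cfb a protease of the complement system.

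Ligands of some of the 6 receptors were read in these libraries as well. The listed ligand genes of CCR7, CXCR4 and CCRL2, which are Ccl19, Ccl21a, Cxcl12 and Rarres2, are not in the table. Of 12 ligand genes on the list 8 are in the table. At 6 h 5 of them were called higher and 2 lower with the stimulus, against 18.9% and 20.3% of all genes. Their median log2 change was 3.87 against -0.13 over all genes. Ccl7 and Ccl12, near 0 reads without stimulus, are among the 5 and enter this median, so it is a description and no test of the ligands as a set. At 24 h 3 were called higher and 4 lower, against 14.6% and 18.2%, with a median of -0.11. Ccl5, a ligand of CCR1, was at 8.06 ± 1.38 CPM without and 1812 ± 614 CPM (SD, n = 4) with the stimulus at 6 h, a log2 fold change of 7.78 (SE 0.28, limma adjusted p = 5.05e-14), and 7.11 (SE 0.28, limma adjusted p = 2.93e-13) at 24 h. Of the CCR2 ligands, Ccl2 rose by a log2 fold change of 6.35 (SE 0.20, limma adjusted p = 9.6e-15) at 6 h. Ccl7 and Ccl12 had 16 and 2 reads in the 4 unstimulated libraries at 6 h and 410 and 16594 in the 4 stimulated ones, so their fold changes depend on the offset of 0.5 reads and are not given for 6 h. At 24 h Ccl12 went from 0.149 ± 0.0703 CPM to 25.3 ± 9.22 CPM, a log2 fold change of 7.52 (SE 0.49, limma adjusted p = 2.87e-10). Ccl7 and Ccl12 reached 1 CPM in stimulated libraries alone and passed the filter through them. Their calls, and the counts and medians that include them, are therefore no test independent of the filter.

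Ccl9 and Ccl6, which bind CCR1, fell at both times. With log2 fold changes of -2.33 and -3.23 at 6 h, they were the 2 ligands called lower there. Ccl9 went from 446 ± 11.9 CPM to 4.29 ± 1.21 CPM at 24 h, a log2 fold change of -6.74 (SE 0.13, limma adjusted p = 6.41e-17), and Ccl6 from 155 ± 25.8 CPM to 3.86 ± 1.15 CPM, a log2 fold change of -5.35 (SE 0.23, limma adjusted p = 7.87e-13). The fall of Ccr2 therefore stood beside a rise of its ligand Ccl2 at 6 h in the same libraries, and the fall of Ccr1 beside ligands that went both ways. Whether ligand and receptor transcripts are linked was not tested.

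G proteins carry the signal of these receptors, and arrestins, receptor kinases and RGS proteins end it. Of 24 listed genes for these proteins and their effectors 23 are in the table, and Rgs16 is not. With the stimulus 2 were called higher and 3 lower at 6 h, against 18.9% and 20.3% of all genes, their median log2 change being -0.17. At 24 h 1 was called higher and 6 lower, against 14.6% and 18.2%, with a median of -0.43 against 0.017 over all genes. Rgs1, which shortens G protein signalling, rose by a log2 fold change of 4.66 (SE 0.10, limma adjusted p = 4.87e-17) at 6 h and 4.18 (SE 0.10, limma adjusted p = 4.87e-16) at 24 h. At 6 h Arrb1, an arrestin, fell with a log2 fold change of -2.27 (SE 0.094, limma adjusted p = 3.82e-13), Pik3cg, the kinase PI3Kγ, with -1.97 (SE 0.12, limma adjusted p = 1.16e-10) and the receptor kinase gene Grk5 with -1.60 (SE 0.16, limma adjusted p = 7.8e-08). At 24 h the largest falls were those of Rgs18, at -4.74 (SE 0.26, limma adjusted p = 2.8e-11), Gng2, at -2.51 (SE 0.16, limma adjusted p = 3.19e-10), and Rgs2, at -2.11 (SE 0.13, limma adjusted p = 1.44e-10). Rgs1 was the 1 gene of the list called higher at 24 h.

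Monocytes also follow formyl peptides, complement fragments and lipids. Of 10 genes for such receptors 1 was called higher and 3 lower at 6 h, against 18.9% and 20.3% of all genes, and 2 higher and 3 lower at 24 h, against 14.6% and 18.2%, with medians of -0.34 and -0.11. Gpr183, a receptor for oxysterols, fell at both times, with a log2 fold change of -6.20 (SE 0.11, limma adjusted p = 4.87e-18) at 6 h and -5.48 (SE 0.11, limma adjusted p = 8.49e-17) at 24 h. C5ar2, a receptor of complement C5a, fell by 2.41 at 6 h and fell by 3.77 at 24 h on the log2 scale, and C3ar1 was called lower at 24 h, at -3.06 (SE 0.29, limma adjusted p = 3.9e-08). Of the formyl peptide receptor genes, Fpr1 was called lower at 6 h, at -3.15 (SE 0.58, limma adjusted p = 8.6e-05), where Fpr2 stood at -0.68 (SE 0.38, limma adjusted p = 0.111), and Fpr2 was called higher at 24 h, at 2.30 (SE 0.38, limma adjusted p = 3.21e-05), where Fpr1 stood at 0.61 (SE 0.58, limma adjusted p = 0.344), or at -0.084 without library 46. Cmklr1, the signalling receptor of the chemerin that CCRL2 binds, rose at 6 h, at 1.60 (SE 0.23, limma adjusted p = 7.56e-06), short of 2 times on library totals at 0.87, and stood at 0.14 (SE 0.23, limma adjusted p = 0.614) at 24 h, where quantile normalization and library totals turn its sign. Between the genotypes, Fpr2, chosen after its values were seen, was the 1 gene of the 4 lists that was called. It was called by title in unstimulated cells at 24 h, where 0.222% of all genes were. Its log2 fold change there was -1.68 (SE 0.27, limma adjusted p = 0.0295) by title and 0.44 (SE 0.63, limma adjusted p = 0.999988) by tag.

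Of 16 other chemokine receptor genes on the list 7 are in the table and 6 passed the filter. With the stimulus 2 were called higher and 1 lower at 6 h, against 18.9% and 20.3% of all genes, and 2 higher and 3 lower at 24 h, against 14.6% and 18.2%. Cxcr5 was at 0.252 ± 0.311 CPM without and 1.56 ± 0.225 CPM (SD, n = 4) with the stimulus at 6 h, and its log2 fold change was 3.64 (SE 0.73, limma adjusted p = 0.000214) at 6 h and 3.54 (SE 0.73, limma adjusted p = 0.000308) at 24 h. The value at 6 h rests on 77 unstimulated reads and was 2.97 without library 1 and 4.46 without library 2. Cxcr5 reached 1 CPM in stimulated libraries alone, so it passed the filter through the group where it was high. Its calls are therefore a description and no test independent of the filter. Cxcr3 went from 6.24 ± 0.631 CPM to 0.123 ± 0.0613 CPM at 24 h, a log2 fold change of -5.78 (SE 0.70, limma adjusted p = 9.44e-07), after -3.11 (SE 0.70, limma adjusted p = 0.000624) at 6 h, where it had 192 reads in the 4 unstimulated and 15 in the 4 stimulated libraries. With 1 CPM added to each value, the log2 difference of Cxcr3 at 6 h was -0.43, short of 2 times. On the deposited values without library 11 it was -2.23. Cxcr3 reached 1 CPM in the unstimulated libraries at 24 h alone, so it passed the filter through the group where it was high. Its calls too are a description and no test independent of the filter. Xcr1 was higher at 6 h, at 2.31 (SE 0.35, limma adjusted p = 9.59e-06), and Cxcr6 and Cxcr2 were lower at 24 h, at -2.25 (SE 0.32, limma adjusted p = 5.88e-06) and -2.20 (SE 0.40, limma adjusted p = 9.19e-05). Cxcr2 is itself on the list of neutrophil markers, whose summed level at 24 h was lower in the stimulated libraries. Xcr1 is on that of dendritic cells, whose sums overlapped at 6 h. On that list Clec9a was at 3.44 to 3.84 CPM without and 14.8 to 21.7 CPM with the stimulus at 6 h. Fscn1 was also higher with the stimulus at 6 h, while Flt3 and Cd209a were lower. The part of these cells in the 2 levels was not tested.

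**Figure D5:**
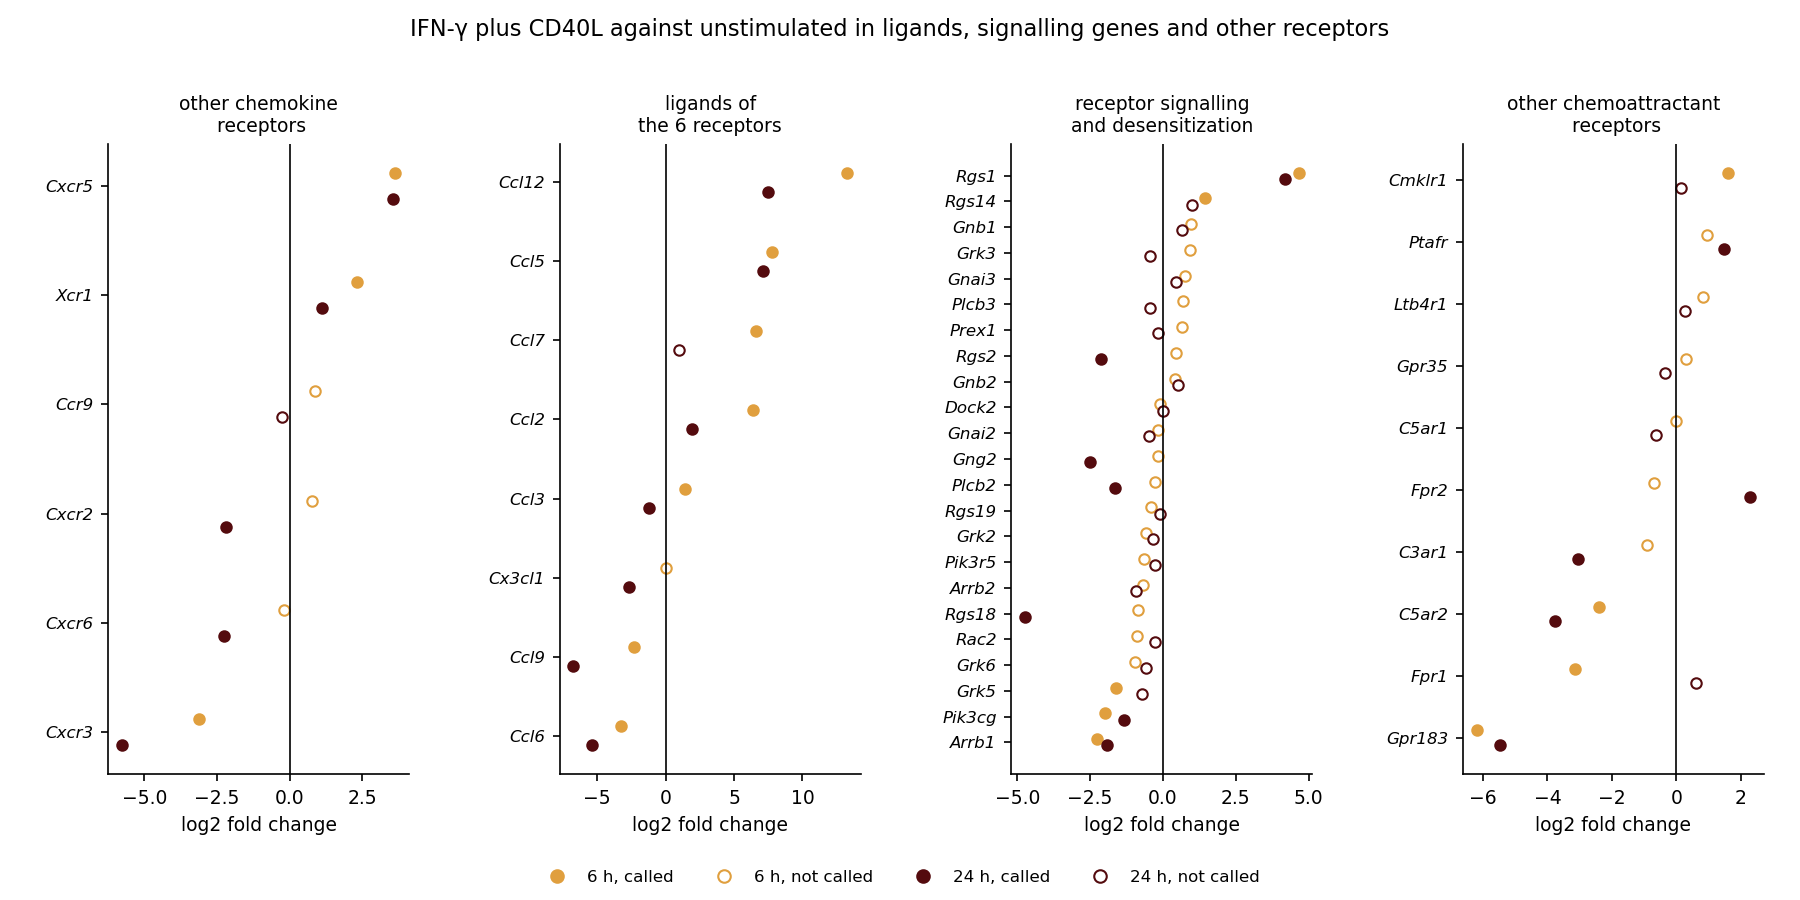
Log2 fold change with IFN-γ plus CD40L against unstimulated cells at 6 h and at 24 h for the genes tested in 4 lists, 1 row per gene ordered by the value at 6 h. Filled points passed a fold change of at least 2 and an adjusted p under 0.05 and open points did not, over 4 against 4 libraries, and the values of Ccl12 and Ccl7 at 6 h rest on 2 and 16 unstimulated reads. Rgs1 lies to the right and Gpr183 to the left at both times.

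The classical monocyte list, whose 5 genes include Ccr2, summed to between 2449.8 and 5898 CPM, and the non-classical list, whose 7 genes include Cx3cr1, to between 816 and 2403 CPM. Ly6c2 led the classical list in the stimulated libraries and Ccr2 in 7 of the 8 unstimulated ones, F13a1 in the other. Itgal led the non-classical list in the stimulated libraries and in 3 unstimulated ones, and Cx3cr1 in the other 5. The 5 markers of mast cells, basophils and eosinophils summed to between 6.52 and 82.2 CPM, led by Prg2, and were lowest at 6 h in NFAM1-/- libraries 3 and 11. At 24 h the summed non-classical markers were at 1648 to 2060.3 CPM without and 816 to 1067 CPM with the stimulus. These sums hold Cx3cr1 itself, at 610.4 to 789 CPM without and 19.0 to 28.9 CPM with the stimulus. With Cx3cr1 taken out, the sums overlapped through stimulated library 58 alone, which stood barely above unstimulated library 46. The other stimulated libraries stayed below all unstimulated ones. Itgal made up most of the remaining sum in both, at 811 CPM in library 58 and 768 CPM in library 46. The summed markers of mast cells, basophils and eosinophils at 24 h were at 34.9 to 82.2 CPM without and 6.52 to 16.3 CPM with the stimulus. The part of these cells in the receptor levels was not tested.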

How the data were processed

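RNA from 16 monocyte cultures was sequenced for the authors at Beijing Genomics Institute as poly(A) libraries without strand. The reads were aligned by the authors with STAR, counted by the authors with Rsubread and analysed by the authors with edgeR and limma-voom. The submitters' processing notes name FastQC and the builds GRCm39 and mm39. The authors deposited log2 CPM values for 13085 genes. Whole reads were recovered from them: 100% of the values under 200 reads came out whole within 0.05 reads. Of the symbols, 17 appear as dates and 1 is listed more than once. 1 chemokine receptor gene is not reported here.

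Comparisons used limma 3.58.1 in R 4.3.3 on the log2 values, with a trend in the prior variance and Benjamini-Hochberg adjustment over all genes tested. Genes needed at least 1 CPM in 4 of 16 libraries, or in 2 of 8. Stimulus and time were fitted over 16 libraries in 4 groups with 12 residual degrees of freedom, and genotype over the 8 libraries of a time with 4. The scripts were tested on simulated data. The 6 receptors and the gene lists were chosen with earlier results of these data known. The text names up to 4 called genes with the largest change per list and stimulus comparison, the 3 genes most like each receptor, the most abundant gene of each marker list and Nfam1. Alternatives were the filter, the offset, quantile normalization, centring, library totals, the prior variance, voom weights, the minimum fold change, the libraries in the fit, the source of the genotype and leaving out each library.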

Additional observations from a re-analysis of the deposited data

Results flagged for a closer look

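For 2 of the 6 receptors the stimulus effect at 24 h differed from that at 6 h by 2 times or more, in a test of the difference itself over the 16 libraries, against 31.6% of all genes, so such a difference was common. For Ccr2 the difference of the log2 effects was -1.499, with a larger fall at 24 h, and under quantile normalization it was -0.80, short of 2 times. For Cxcr4 it was 1.28, with a larger fall at 6 h. For Cx3cr1 it was -0.79, which passed the adjusted threshold in limma without reaching 2 times, and without the minimum of 2 times 8168 of the 12306 genes were called. The 2 times share no library, so a difference between the sets of libraries and a difference between the times cannot be told apart. No library stood apart from the other 3 of its group for any of the 6 receptors: in 24 groups of 4, no gap to the nearest library, taken over the range, passed Dixon's 95% critical value, which chance passes in about 1 of 20 groups.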

How the results depend on the processing

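The calls of Ccr2, Ccr7, Ccrl2, Cx3cr1 and Cxcr4 with the stimulus kept their direction at both times under each setting tried, and Ccr1 was the receptor whose call at 6 h depended on the setting. Comparisons of genotype rest on 2 against 2 libraries with 4 residual degrees of freedom, so a p that misses the threshold says little about the size of a difference. At 24 h they also rest on labels that conflict. Where 1 library was left out of such a group, the lone library was assumed to vary like the other groups. No paired analysis was run, because each library number occurs once and the groups share none. Pairs by the order of the libraries would be inferred, not labelled, and were not tried. By the study's count of mice some libraries share an animal, and no label says which. Where a value moved, the cause was not tested.

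On library totals, the number of genes called was 1484 (stimulus at 6 h higher, 2327 in the report), 5350 (stimulus at 6 h lower, 2503 in the report), 3260 (time stimulated higher, 2012 in the report) and 3 (genotype at 24 h stimulated, 14 in the report). There the number of receptors called was 2 (time stimulated higher, 1 in the report) and 0 (time stimulated lower, 2 in the report). There the log2 difference turned sign to -0.28 (Rgs2 stimulus at 6 h), -0.20 (Cmklr1 stimulus at 24 h), 0.18 (Ccr1 time stimulated), 0.15 (Ccrl2 change of the effect) and 0.021 (Ccr1 genotype at 24 h stimulated). Without a minimum fold change, the number of genes called was 4272 (stimulus at 6 h higher, 2327 in the report), 5324 (stimulus at 6 h lower, 2503 in the report), 4705 (stimulus at 24 h higher, 1791 in the report), 4438 (stimulus at 24 h lower, 2237 in the report), 4100 (time unstimulated higher, 1573 in the report), 3642 (time unstimulated lower, 933 in the report), 4851 (time stimulated higher, 2012 in the report), 4457 (time stimulated lower, 2071 in the report), 8168 (change of the effect, 3885 in the report), 19 (genotype at 6 h unstimulated, 8 in the report), 8651 (stimulus at 6 h within NFAM1+/+, 4807 in the report), 8528 (stimulus at 6 h within NFAM1-/-, 4634 in the report), 114 (genotype at 24 h unstimulated, 27 in the report) and 37 (genotype at 24 h stimulated, 14 in the report). There the number of receptors called was 2 (time unstimulated higher, 1 in the report), 2 (time unstimulated lower, 0 in the report), 2 (time stimulated higher, 1 in the report) and 2 (genotype at 24 h unstimulated, 1 in the report). With a mean of at least 5 CPM, the number of genes called was 1630 (stimulus at 6 h lower, 2503 in the report), 1275 (stimulus at 24 h lower, 2237 in the report), 844 (time unstimulated higher, 1573 in the report), 599 (time unstimulated lower, 933 in the report), 5 (genotype at 6 h unstimulated, 8 in the report), 1 (genotype at 6 h stimulated, 4 in the report), 30 (genotype at 24 h stimulated, 14 in the report) and 24 (response by genotype at 24 h, 0 in the report). With quantile normalization, the number of genes called was 16 (response by genotype at 24 h, 0 in the report). There the number of receptors called was 1 (time stimulated lower, 2 in the report) and 1 (change of the effect, 2 in the report). There the log2 difference turned sign to -0.35 (Rgs2 stimulus at 6 h), -0.10 (Cmklr1 stimulus at 24 h), -0.015 (Ccr2 time unstimulated) and 0.13 (Ccrl2 change of the effect). On log2(CPM + 1), the number of genes called was 1035 (time unstimulated higher, 1573 in the report), 3 (genotype at 6 h unstimulated, 8 in the report), 30 (genotype at 24 h stimulated, 14 in the report) and 26 (response by genotype at 24 h, 0 in the report). Without a trend in the prior variance, the number of genes called was 3 (genotype at 6 h unstimulated, 8 in the report), 0 (genotype at 6 h stimulated, 4 in the report), 5 (genotype at 24 h unstimulated, 27 in the report), 2 (genotype at 24 h stimulated, 14 in the report) and 3 (response by genotype at 24 h, 0 in the report). There the number of receptors called was 0 (genotype at 24 h unstimulated, 1 in the report). With voom precision weights, the number of genes called was 3 (genotype at 6 h unstimulated, 8 in the report), 0 (genotype at 6 h stimulated, 4 in the report), 43 (genotype at 24 h stimulated, 14 in the report) and 32 (response by genotype at 24 h, 0 in the report). With 1 genotype effect common to both stimuli, the number of genes called was 1 (genotype at 6 h unstimulated, 8 in the report) and 1 (genotype at 6 h stimulated, 4 in the report). There the log2 difference turned sign to -0.10 (Cxcr4 genotype at 6 h unstimulated) and 0.36 (Ccr1 genotype at 6 h stimulated). Centred on the median, the number of genes called was 2 (genotype at 6 h stimulated, 4 in the report) and 2 (response by genotype at 24 h, 0 in the report). With only the libraries of the groups compared, the number of genes called was 2 (genotype at 6 h stimulated, 4 in the report), 49 (genotype at 24 h unstimulated, 27 in the report) and 0 (genotype at 24 h stimulated, 14 in the report). With the genotype of the tag, the number of genes called was 1 (genotype at 24 h unstimulated, 27 in the report) and 0 (genotype at 24 h stimulated, 14 in the report). There the number of receptors called was 0 (genotype at 24 h unstimulated, 1 in the report). There the log2 difference turned sign to -0.16 (Ccr1 genotype at 24 h unstimulated), -0.079 (Ccr2 genotype at 24 h unstimulated), 0.94 (Ccr7 genotype at 24 h unstimulated), 0.18 (Ccrl2 genotype at 24 h unstimulated), 0.11 (Cx3cr1 genotype at 24 h unstimulated), -0.47 (Ccr2 genotype at 24 h stimulated), 0.63 (Ccr7 genotype at 24 h stimulated), 0.10 (Ccrl2 genotype at 24 h stimulated), -0.43 (Cx3cr1 genotype at 24 h stimulated), 0.084 (Cxcr4 genotype at 24 h stimulated), 0.16 (Ccr1 response by genotype at 24 h), -0.39 (Ccr2 response by genotype at 24 h), -0.080 (Ccrl2 response by genotype at 24 h), -0.54 (Cx3cr1 response by genotype at 24 h) and 0.037 (Cxcr4 response by genotype at 24 h). Without the filter, the number of genes called was 0 (genotype at 24 h stimulated, 14 in the report). With a robust prior variance, the number of genes called was 35 (genotype at 24 h stimulated, 14 in the report) and 19 (response by genotype at 24 h, 0 in the report). Leaving out 1 library at a time, the number of genes called ranged over 0 to 22 (genotype at 6 h unstimulated), 0 to 135 (genotype at 6 h stimulated), 0 to 68 (response by genotype at 6 h), 9 to 54 (genotype at 24 h unstimulated), 0 to 215 (genotype at 24 h stimulated) and 0 to 129 (response by genotype at 24 h). The number of receptors called ranged over 0 to 1 (genotype at 6 h stimulated), 0 to 1 (response by genotype at 6 h), 0 to 1 (genotype at 24 h unstimulated) and 0 to 1 (genotype at 24 h stimulated). The log2 differences that turned sign ranged over -0.043 to 0.31 (Cmklr1 stimulus at 24 h), -0.084 to 1.02 (Fpr1 stimulus at 24 h), -0.36 to 0.032 (Ccr1 time stimulated), -0.79 to 0.37 (Ccr1 genotype at 6 h stimulated), -0.79 to 0.22 (Ccr7 response by genotype at 6 h), -0.30 to 0.083 (Cx3cr1 response by genotype at 6 h), -0.77 to 0.39 (Ccr1 stimulus at 6 h within NFAM1+/+), -0.90 to 0.39 (Ccr7 genotype at 24 h unstimulated), -0.015 to 0.13 (Cxcr4 genotype at 24 h unstimulated), -0.15 to 0.13 (Ccr1 genotype at 24 h stimulated), -0.17 to 0.44 (Cx3cr1 genotype at 24 h stimulated) and -1.10 to 0.20 (Ccr7 response by genotype at 24 h).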
